A study of Mus musculus with 22 samples.

Results

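Elastic fibres and the microfibrils around them were followed through 9 genes: Eln, Fbn1, Fbn2, Fbln1, Fbln2, Fbln5, Emilin1, Mfap4 and Mfap5. The members were taken by gene symbol, and all 9 are among the 18632 genes present in each of the authors' 3 tables of differential expression from mouse RNA sequencing. The cells carried the Col2.3GFP reporter, which places green fluorescent protein under part of a type I collagen promoter and so marks cells of the osteoblast lineage. Undifferentiated embryonic stem cells of a Col2.3GFP line (ESC, 3 samples, passages 20 to 30) were compared with cultures differentiated from them to osteoblasts for 35 to 40 days (ESC-OB, 3 samples, the same passages), and with the GFP-positive fraction of ESC-OB cultures (sorted ESC-OB GFP+, 3 samples, no passage given). Undifferentiated induced pluripotent stem cells of a Col2.3GFP line (iPSC, 2 samples, passages 10 to 20) were compared with osteoblast cultures made from them by the same protocol (iPSC-OB, 2 samples). For differentiation, cells formed embryoid bodies over 6 days in medium lacking LIF, PD0325901 and CHIR99021. Retinoic acid at 0.1 µM was given from day 3 to day 5, and osteogenic medium came afterwards. The stem cells were grown on mouse embryonic fibroblast feeders or without feeders in a serum-free medium, and the labels do not tie a medium to a sample. Each line is the only one of its kind in these comparisons, so cell source and line cannot be told apart.

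Elastin is secreted as the soluble monomer tropoelastin, which coacervates, is laid onto a scaffold of microfibrils and is crosslinked by lysyl oxidases into an insoluble, stretchable polymer. The microfibrils are polymers of fibrillins to which microfibril-associated proteins, emilins and fibulins bind. They also store latent TGF-beta and bone morphogenetic proteins, and in bone, a tissue with little elastin, fibrillins are known chiefly for controlling the release of these growth factors.

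The deposited tables give each gene's base mean, log2 fold change, standard error and adjusted p from the authors' DESeq2 fit, and no value for a single sample. Where a level is given below, it is an estimate of the group mean as CPM (counts scaled to a total of 1e+06), 1 value per group and with no spread over samples. The base means of the rarest genes placed the libraries of the ESC fit at 4.49 to 30.1 M reads, with the sorted cells deepest (22.4 to 30.1), and those of the iPSC fit at 10.1 to 17.7. By that reading 3 libraries lay on the iPSC side, whereas the labels name 2. On simulated data the reading returned each library but at times an additional one, so that number is uncertain. The direction of the folds is not stated in the tables. Pou5f1 and Nanog, both pluripotency factors, had log2 changes from -13.39 to -7.97 in the authors' deposited table, so positive values were read as higher in the differentiated cells. Of the 12 osteoblast markers listed, 8 rose and 2 fell in ESC-OB, 10 rose and 1 fell in sorted ESC-OB GFP+, and 9 rose and 1 fell in iPSC-OB. Alpl, which pluripotent cells also express, fell in each, and Sp7, an osteoblast transcription factor, had a log2 change of 1.69 ± 1.09 (SE, adjusted p = 0.155) in ESC-OB and -0.05 ± 1.13 (adjusted p = 0.977) in iPSC-OB in the authors' deposited table. Spp1, osteopontin, had estimated levels of 778 CPM in ESC, 272 in ESC-OB and 642 in sorted ESC-OB GFP+, and 557 and 284 in iPSC and iPSC-OB. Bglap, osteocalcin, reached only 0.830 CPM in ESC-OB, 0.536 in sorted ESC-OB GFP+ and 1.02 in iPSC-OB. Nothing in the sources states that replicates were separate cultures, so the p-values measure only the spread between these samples, which may be technical.

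All 9 members rose at an adjusted p under 0.05 in each of the 3 comparisons, and 0 fell. In ESC-OB against ESC, 38.6% of the 18208 genes tested rose and 31.0% fell, and the median log2 change was 5.78 over the members and 0.26 over all genes. In sorted ESC-OB GFP+ against ESC, 39.1% of 18588 genes rose and 32.4% fell, and the medians were 5.29 and 0.28. In iPSC-OB against iPSC, 26.1% of 17579 genes rose and 23.1% fell, and the medians were 2.23 and 0.15. With a minimum size of 1 on the log2 scale added, the count was 8 of 9 in each comparison, since Fbln1 dropped out of both ESC comparisons and Fbln2 out of the iPSC one. The share of all genes that rose under this added rule was not counted, so that count has no background. Both ESC comparisons share their ESC samples, and their values stand side by side here for that reason. In bulk samples, fewer cells of a type and less RNA per cell cannot be told apart, and this holds for every change below.

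**Figure D1:**
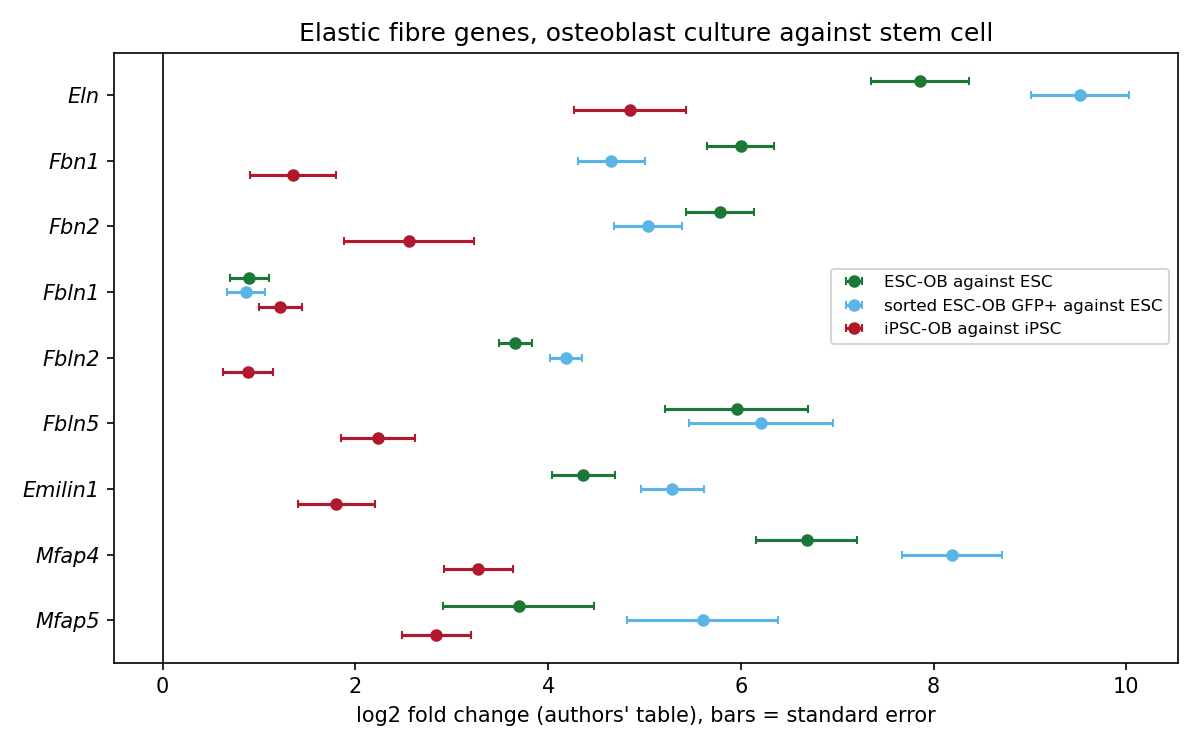
The log2 fold change of each member on the horizontal axis, from the authors' deposited table, with bars of 1 standard error, in the 3 comparisons. All points lie right of 0, Eln reaches the highest value in each comparison, and 8 of the 9 iPSC-OB points lie left of both ESC-derived points of the same gene, Fbln1 being the exception.

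Promoter sequence is shown for the members whose table entry reached outside the gene, because these rose together while differing widely in size, from the small rise of Fbln1 to the large ones of Fbn1 and Fbln5. With the chromosome of Fbn2 left out of the search, RefSeq's table on GRCm38.p6 held an entry for 5 of the 9 members. The authors' files were made on mm9 per the submitters' processing notes, so these coordinates belong to another build. The windows are chr15:85205699-85205948 on the plus strand for Fbln1, chr12:101819120-101819369 on the minus strand for Fbln5, and chr2:125506486-125506688 on the minus strand for Fbn1. Each is printed 5′ to 3′ on the gene's strand and ends at the base before the gene's RefSeq span. Capitals mark matches on either strand to any of 6 motifs.
Fbln1: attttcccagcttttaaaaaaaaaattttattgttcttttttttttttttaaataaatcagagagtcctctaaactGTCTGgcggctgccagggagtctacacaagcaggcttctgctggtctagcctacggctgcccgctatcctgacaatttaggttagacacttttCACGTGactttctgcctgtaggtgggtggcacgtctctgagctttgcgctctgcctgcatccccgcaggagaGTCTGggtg
Fbln5: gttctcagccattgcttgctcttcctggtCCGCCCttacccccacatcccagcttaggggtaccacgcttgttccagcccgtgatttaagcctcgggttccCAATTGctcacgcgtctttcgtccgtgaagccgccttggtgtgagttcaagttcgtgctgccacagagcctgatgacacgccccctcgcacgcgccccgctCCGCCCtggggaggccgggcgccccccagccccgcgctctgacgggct
Fbn1: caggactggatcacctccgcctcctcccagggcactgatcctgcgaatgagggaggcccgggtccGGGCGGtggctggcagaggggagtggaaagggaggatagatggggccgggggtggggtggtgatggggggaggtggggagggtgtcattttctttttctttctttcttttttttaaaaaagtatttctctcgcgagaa

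The motifs searched were the TATA box TATAAA, the GC box GGGCGG, the E-box CANNTG, the AP-1 site TGANTCA, the Smad element CAGAC and the CArG box. The Fbln1 window held 1 E-box and 2 Smad elements. The Fbln5 window held 2 GC boxes and 1 E-box, and the Fbn1 window 1 GC box. No motif was shared by the 3 windows. Of 32851 RefSeq windows of 250 bases, 66.2% held an E-box, 42.2% a Smad element, 32.7% a GC box, 12.4% a TATA box, 6.75% an AP-1 site and 1.47% a CArG box. At the 203 bases of the Fbn1 window, 25.2% held a GC box. The matches are descriptions of letters in these windows, and each motif found is held by at least 25.2% of windows of its length.

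Eln encodes tropoelastin, the elastic core of the fibre, and it had the highest log2 change of the 9 members in every comparison. In the authors' deposited table it rose by 7.86 ± 0.51 (log2, SE, adjusted p = 1.16e-52) in ESC-OB and by 9.52 ± 0.51 (adjusted p = 4.65e-77) in sorted ESC-OB GFP+. The corresponding rise in iPSC-OB was 4.85 ± 0.58 (adjusted p = 1.54e-15) in the authors' deposited table. These changes stood above those of 97.6%, 99.1% and 98.3% of all genes tested. The estimated level went from 0.647 CPM in ESC to 161 in ESC-OB and 531 in sorted ESC-OB GFP+, and from 1.25 CPM in iPSC to 40.0 in iPSC-OB. The ESC level equals 7.76 normalised counts a library, the lowest normalised count of any member in any group, so the size of the Eln fold rests on few ESC reads.

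The fibrillins are the structural polymers of the microfibril, Fbn1 being the main form after birth and Fbn2 mainly embryonic. Fbn1 rose by 6.00 ± 0.35 (log2, SE, adjusted p = 1.69e-65) in ESC-OB, 4.65 ± 0.35 (adjusted p = 4.08e-40) in sorted ESC-OB GFP+ and 1.36 ± 0.45 (adjusted p = 0.00624) in iPSC-OB in the authors' deposited table. Its estimated level was 2.87 CPM in ESC, 196 in ESC-OB and 80.6 in sorted ESC-OB GFP+, against 65.6 in iPSC and 187 in iPSC-OB. Fbn1 thus began far higher in iPSC than in ESC, and both kinds of culture ended at like estimated levels. Fbn2 rose by 5.78 ± 0.35 (adjusted p = 2.97e-59), 5.04 ± 0.35 (adjusted p = 1.75e-45) and 2.56 ± 0.67 (adjusted p = 4.84e-04) in ESC-OB, sorted ESC-OB GFP+ and iPSC-OB in the authors' deposited table. Its estimated level was 2.49, 147 and 91.2 CPM in ESC, ESC-OB and sorted ESC-OB GFP+, and 6.19 and 40.6 in iPSC and iPSC-OB. For both fibrillins the estimated level was higher in the unsorted ESC cultures than in the sorted cells.

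The ratio of Fbn1 to Fbn2, compared as CPM per kilobase of exon, was 1.25 in ESC, 1.46 in ESC-OB and 0.963 in sorted ESC-OB GFP+. It was 11.5 in iPSC and 5.03 in iPSC-OB. Per length, both fibrillins were thus close to each other in the 3 ESC-derived groups, and Fbn1 was the higher in both iPSC-derived ones. These ratios carry no test, since the tables hold no value per sample.

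Fbln1 and Fbln2 encode fibulins found in elastic fibres and basement membranes. Fbln5 encodes the fibulin that links tropoelastin to microfibrils and to cells and is needed for elastic fibre assembly. Fbln1 had the smallest change of the members in both ESC comparisons, a rise of 0.90 ± 0.20 (log2, SE, adjusted p = 1.41e-05) in ESC-OB and 0.87 ± 0.20 (adjusted p = 2.57e-05) in sorted ESC-OB GFP+ in the authors' deposited table. In iPSC-OB it rose by 1.22 ± 0.22 (adjusted p = 2.39e-07) in the authors' deposited table. Its estimated level was already 104 CPM in ESC and stood at 208 in ESC-OB and 211 in sorted ESC-OB GFP+, and it was 53.5 CPM in iPSC and 139 in iPSC-OB. Per kilobase of exon, Fbln1 stood at 23.8 CPM in ESC and the next member, Fbln2, at 2.48.

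Fbln2 rose by 3.66 ± 0.17 (log2, SE, adjusted p = 3.94e-103) in ESC-OB, 4.19 ± 0.17 (adjusted p = 1.50e-136) in sorted ESC-OB GFP+ and 0.89 ± 0.26 (adjusted p = 0.00199) in iPSC-OB in the authors' deposited table. Estimated levels were 15.8, 215 and 322 CPM in the 3 ESC-derived groups, and 193 and 399 CPM in iPSC and iPSC-OB. The undifferentiated iPSC thus stood at an estimated Fbln2 level near that of the differentiated ESC-OB. Fbln5 rose by 5.96 ± 0.75 (adjusted p = 6.08e-15), 6.21 ± 0.75 (adjusted p = 3.12e-16) and 2.23 ± 0.38 (adjusted p = 4.27e-08) in ESC-OB, sorted ESC-OB GFP+ and iPSC-OB in the authors' deposited table. Its estimated levels were 1.06, 70.5 and 87.6 CPM in the ESC-derived groups, and 6.18 and 32.5 in iPSC and iPSC-OB. The standard error of 0.75 in both ESC comparisons, against 0.17 for Fbln2, in the authors' deposited table leaves the size of its rise less precisely known.

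Emilin1 encodes a glycoprotein found where elastin meets microfibrils, and Mfap4 and Mfap5 encode microfibril-associated proteins, Mfap4 binding tropoelastin and collagen and Mfap5, also called MAGP2, binding fibrillins. Emilin1 rose by 4.36 ± 0.32 (log2, SE, adjusted p = 4.85e-40) in ESC-OB, 5.29 ± 0.32 (adjusted p = 8.07e-59) in sorted ESC-OB GFP+ and 1.80 ± 0.40 (adjusted p = 2.81e-05) in iPSC-OB in the authors' deposited table. Its estimated levels were 3.95, 87.3 and 173 CPM in the ESC-derived groups and 10.1 and 39.2 in the iPSC-derived ones. Mfap4 followed Eln as the member with the next largest log2 change in every comparison. It rose by 6.68 ± 0.52 (adjusted p = 1.74e-36), 8.19 ± 0.52 (adjusted p = 1.53e-54) and 3.28 ± 0.36 (adjusted p = 2.61e-18) in ESC-OB, sorted ESC-OB GFP+ and iPSC-OB in the authors' deposited table, and its estimated levels were 0.693, 76.3, 226, 3.32 and 36.0 CPM from ESC to iPSC-OB.

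Mfap5 rose by 3.69 ± 0.79 (log2, SE, adjusted p = 5.97e-06), 5.60 ± 0.78 (adjusted p = 2.69e-12) and 2.84 ± 0.36 (adjusted p = 4.36e-14) in ESC-OB, sorted ESC-OB GFP+ and iPSC-OB in the authors' deposited table. Its estimated levels were 1.17, 16.3 and 63.8 CPM in the ESC-derived groups and 2.21 and 17.6 in the iPSC-derived ones. Per kilobase of exon it was the lowest member in ESC-OB, at 4.55 CPM. In GENCODE M21, exons of Mfap4 overlap those of Mapk7, a kinase gene on the opposite strand, and the sources used here do not say whether the authors counted by strand. Mapk7 had log2 changes of -0.68 ± 0.18 (adjusted p = 2.20e-04), -0.81 ± 0.17 (adjusted p = 4.17e-06) and -0.28 ± 0.27 (adjusted p = 0.413) in the authors' deposited table, opposite in sign to those of Mfap4. Eln, Fbn1 and Fbn2 overlap opposite-strand transcripts that the tables do not list as genes.

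**Figure D2:**
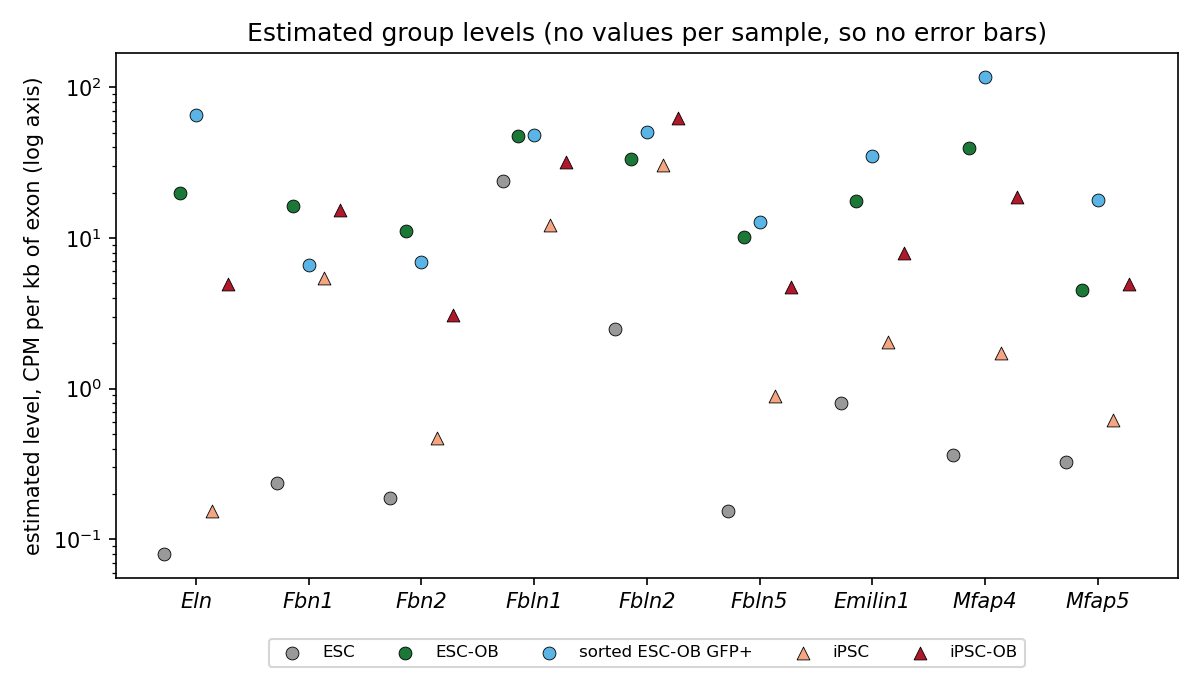
Estimated level of each member in the 5 groups, in CPM per kilobase of exon on a log axis, 1 value per group with no spread available. Levels rise from stem cells to cultures for every member. In ESC, Fbln1 starts at 23.8 CPM per kilobase and Eln at 0.0799, and in iPSC, Fbn1 and Fbln2 stand at 5.41 and 30.3.

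Within each fit the order of the groups can be read from the tests. For all 9 members ESC was lowest and differed from both of its differentiated groups, and iPSC was lower than iPSC-OB. ESC-OB and sorted ESC-OB GFP+ were neighbours that differed only for Fbn1 when the errors were summed, and for 6 members when the error allowed for the shared ESC samples. Levels of iPSC and iPSC-OB were normalised apart from the ESC-derived ones, so their place in an order of all 5 groups carries no test. If 3 iPSC libraries are assumed in place of the labelled 2, the estimated iPSC and iPSC-OB levels of the members are 1.02 to 1.28 times as high.

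To compare the members with each other, levels were divided by exon length. In ESC, Fbln1 led with 23.8 CPM per kilobase and made up 78.3% of the members' summed CPM, and Eln was last with 0.0799. In ESC-OB, Fbln1 (47.6), Mfap4 (39.7) and Fbln2 (33.7 CPM per kilobase) led, followed by Eln (19.9). In sorted ESC-OB GFP+, Mfap4 (117 CPM per kilobase) and Eln (65.6) led, and Fbn1 was last with 6.65. In both iPSC and iPSC-OB, Fbln2 led with 30.3 and 62.7 CPM per kilobase. Shares of the summed CPM are not per length and are compared only between groups. The Eln share was 0.489% in ESC, 13.7% in ESC-OB and 29.7% in sorted ESC-OB GFP+, against 0.365% in iPSC and 4.30% in iPSC-OB. The combined share of Fbn1 and Fbn2 was 29.2% in ESC-OB and 9.62% in sorted ESC-OB GFP+. These shares have no spread and no test.

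The sorted cells and the whole cultures were compared by subtracting the ESC-OB change from that of sorted ESC-OB GFP+. The ESC samples are common to both, so the summed standard error used here is an upper limit. Fbn1 was lower in the sorted cells, by a log2 difference of -1.34 ± 0.49 (SE, 95% interval -2.30 to -0.38, adjusted p = 0.0299), a ratio of 0.394. No member was higher by this test. The background was 10.7% of 19739 genes higher and 12.1% lower, so 1 lower member of 9 and 0 higher are near or below the share among all genes. The largest positive differences were 1.91 ± 1.11 for Mfap5 (interval -0.27 to 4.08, adjusted p = 0.247), 1.66 ± 0.72 for Eln (interval 0.25 to 3.07, adjusted p = 0.0813) and 1.51 ± 0.74 for Mfap4 (interval 0.06 to 2.95, adjusted p = 0.139).

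The other members had differences that also missed the threshold. Emilin1 differed by 0.92 ± 0.46 (log2, SE, interval 0.03 to 1.82, adjusted p = 0.147) and Fbln2 by 0.53 ± 0.24 (interval 0.06 to 0.99, adjusted p = 0.0976). Fbn2 differed by -0.75 ± 0.50 (interval -1.72 to 0.23, adjusted p = 0.342), Fbln5 by 0.26 ± 1.05 (interval -1.81 to 2.32, adjusted p = 0.943) and Fbln1 by -0.03 ± 0.28 (interval -0.59 to 0.52, adjusted p = 0.967). The intervals are not adjusted for the number of genes, and those of Eln, Mfap4, Emilin1 and Fbln2 lie above 0 although their adjusted p missed the threshold. The intervals of Mfap5 and Fbln5 span several log2 units, and only that of Fbln1 lies within 0.59 of 0. All these intervals use the summed error and are thus wider than the shared ESC samples require. With an error that allows for those samples, the SE was 0.785 for Mfap5 and 0.746 for Fbln5.

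The outcome of this comparison turned on the standard error. With an error that allows for the shared ESC samples and assumes equal error in each group, 5 members were higher in the sorted cells, namely Eln (adjusted p = 0.00421), Fbln2 (0.00616), Mfap4 (0.0131), Emilin1 (0.0146) and Mfap5 (0.0434), and Fbn1 was lower (adjusted p = 5.19e-04). The background under that error was 17.7% of genes higher and 17.7% lower. Fbn2 (adjusted p = 0.0864), Fbln5 (0.854) and Fbln1 (0.926) did not pass it either. Under both errors Fbn1 was the only lower member.

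Some markers of other cells also differed between the sorted and unsorted cultures, where 10.7% of all genes were higher and 12.1% lower. The estimated summed level of the 10 cardiac muscle markers was 2536 CPM in ESC-OB and 525 in sorted ESC-OB GFP+, and 4 of them (Ryr2, Myh7, Myh6 and Tnni3) were lower in the sorted cells. Of the fibroblast and tendon markers Pdgfra and Thy1 were lower by log2 differences of -1.50 ± 0.46 (SE, adjusted p = 0.00681) and -3.13 ± 0.90 (adjusted p = 0.0037), and 1 was higher. The summed level of all 12 was 4017 CPM in ESC-OB and 5099 in the sorted cells. The 12 smooth muscle and pericyte markers summed to 785 and 1430 CPM, the 10 endothelial ones to 288 and 155, the 9 cartilage ones to 252 and 244, and the 12 osteoblast ones to 13258 and 20014. Of the osteoblast sums, Col1a1 held 2587 and 5702 CPM and Col1a2 2434 and 4572. The cells were sorted on a reporter under part of a type I collagen promoter, so these collagen genes are not independent of the sort. Of the osteoblast markers 2 were higher in the sorted cells and 0 lower, and of the smooth muscle and pericyte ones 1 and 0. Of the endothelial markers 0 were higher and 1 lower, as of the cartilage ones. The counts of these lists and of the fibroblast and tendon list are near the shares among all genes. The summed levels carry no test. The 10 epithelial markers summed to 2157 CPM in ESC-OB and 4324 in the sorted cells, and 3 of them (Krt8, Krt18 and Epcam) were higher in the sorted cells, while 0 were lower. Krt8, a keratin of simple epithelia, differed by 1.07 ± 0.27 (log2, SE, adjusted p = 7.86e-04). The part of these cell types in the difference of Fbn1, and of depth, which was higher in the sorted libraries, was not tested. The labels give an ultra-low-input kit for some samples without naming them, so the part of the kit cannot be told apart.

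**Figure D3:**
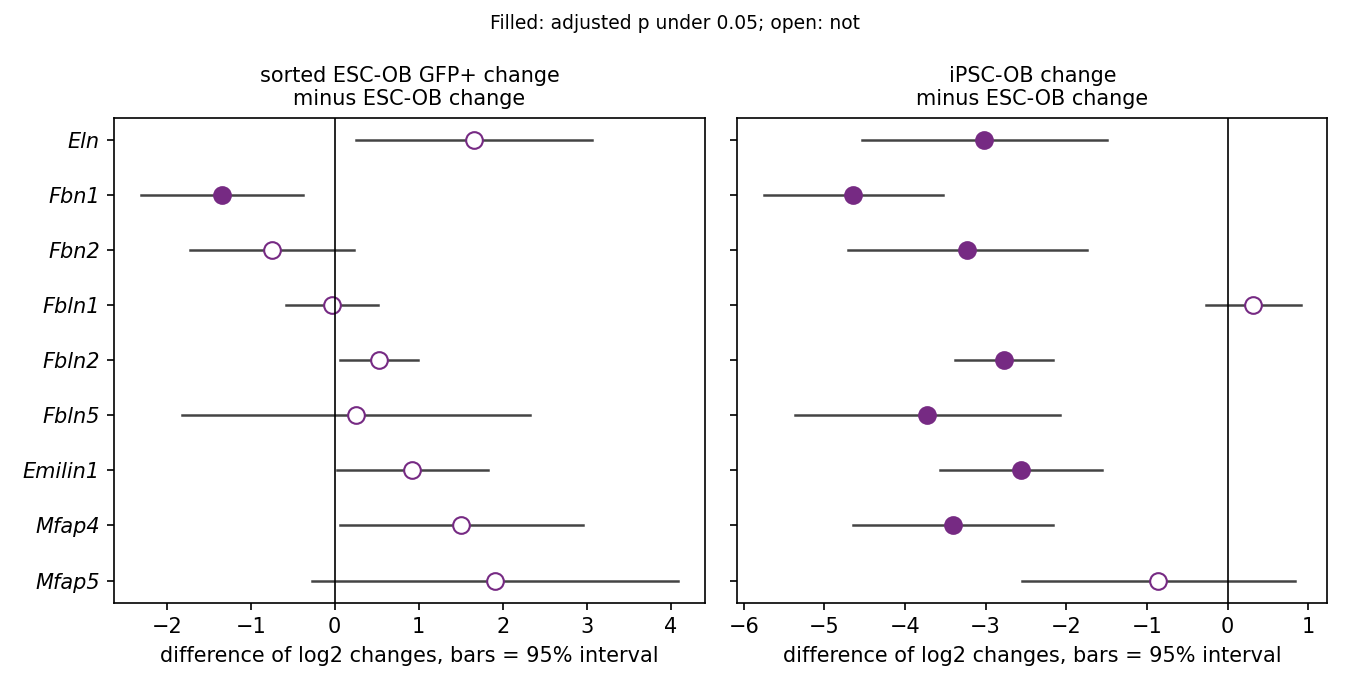
Difference between 2 log2 changes for each member, with bars for the 95% interval: sorted ESC-OB GFP+ minus ESC-OB, and iPSC-OB minus ESC-OB. For the sorted cells the bars use the summed error, an upper limit, and only the interval of Fbn1 lies wholly below 0. Those of Eln, Mfap4, Emilin1 and Fbln2 lie wholly above 0, although their adjusted p missed the threshold. For iPSC-OB the intervals of 7 members lie wholly below 0, those of Fbln1 and Mfap5 reaching across 0.

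The change from iPSC to iPSC-OB was smaller than that from ESC to ESC-OB for 7 of the 9 members, and larger for 0. The background was 17.2% of 18597 genes lower and 11.0% higher, and the median difference was -3.01 over the members and -0.07 over all genes. Among the fibrillins the difference was -4.64 ± 0.56 (log2, SE, 95% interval -5.75 to -3.53, adjusted p = 1.37e-14) for Fbn1, the largest of any member, and -3.23 ± 0.76 (interval -4.71 to -1.74, adjusted p = 1.86e-04) for Fbn2. It was -3.01 ± 0.77 (interval -4.53 to -1.50, adjusted p = 7.30e-04) for Eln. Of the fibulins, Fbln5 differed by -3.72 ± 0.84 (interval -5.37 to -2.08, adjusted p = 9.27e-05) and Fbln2 by -2.77 ± 0.31 (interval -3.38 to -2.17, adjusted p = 3.34e-17). Mfap4 differed by -3.41 ± 0.63 (interval -4.65 to -2.16, adjusted p = 1.29e-06) and Emilin1 by -2.56 ± 0.51 (interval -3.57 to -1.55, adjusted p = 8.54e-06). The values for Fbln1, 0.32 ± 0.30 (interval -0.26 to 0.91, adjusted p = 0.468), and Mfap5, -0.86 ± 0.86 (interval -2.55 to 0.84, adjusted p = 0.511), missed the threshold. The count of 7 held under every alternative run.

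The difference combines where the cells began and where they ended. The median estimated level over the members was 2.49 CPM in ESC and 6.19 in iPSC, and 147 CPM in ESC-OB and 40.0 in iPSC-OB. Fbn1 and Fbln2 began higher in iPSC (65.6 and 193 CPM, against 2.87 and 15.8 in ESC) and ended in iPSC-OB at 187 and 399 CPM, against 196 and 215 in ESC-OB. Eln began low in both, at 0.647 CPM in ESC and 1.25 in iPSC, and ended at 40.0 CPM in iPSC-OB against 161 in ESC-OB. The smaller change thus went with a higher starting level for Fbn1 and Fbln2 and mainly with a lower end level for Eln. Fbn2, Fbln5, Emilin1 and Mfap4 began higher in iPSC, at 6.19, 6.18, 10.1 and 3.32 CPM against 2.49, 1.06, 3.95 and 0.693 in ESC. They ended lower in iPSC-OB, at 40.6, 32.5, 39.2 and 36.0 CPM against 147, 70.5, 87.3 and 76.3 in ESC-OB. ESC and iPSC levels were normalised apart, so these contrasts carry no test.

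Several lists of other cell types also had a higher estimated level in iPSC than in ESC, in tables normalised apart and with no test. The 12 fibroblast and tendon markers summed to 10.2 CPM in ESC, with 9 of them under 1 CPM, and to 228 CPM in iPSC, with 5 under 1 CPM. The 12 smooth muscle and pericyte markers summed to 115 and 587 CPM, of which Acta2, the smooth muscle actin, had 0.376 and 147. The 10 epithelial markers summed to 569 and 1614 CPM, of which Krt8 had 3.73 and 134. The 10 cardiac markers summed to 27.8 and 30.0 CPM, the 9 cartilage ones to 31.5 and 43.8, and the 10 endothelial ones to 258 and 69.8. The 8 pluripotency markers summed to 6387 CPM in ESC and 2993 in iPSC, of which Nanog had 976 and 277 and Pou5f1 1003 and 933. The part of this lower pluripotency sum in the members' smaller changes was not tested. The 12 osteoblast markers summed to 1638 CPM in ESC and 1593 in iPSC, with genes that were higher in either source. Sparc, osteonectin, stood at 538 and 259 CPM and Spp1, osteopontin, at 778 and 557. Col1a1 and Col1a2, the chains of type I collagen, stood at 10.3 and 0.669 CPM in ESC and at 349 and 267 in iPSC. The changes of Col1a1 and Col1a2 differed between the sources by -6.25 ± 0.56 (log2, SE, adjusted p = 1.53e-26) and -9.84 ± 0.69 (adjusted p = 9.17e-43). The part of such cells, feeders included, in the members' smaller changes was not tested. The authors' folds may also be drawn towards 0, though the sources do not state it. Their standard errors do not exceed 1.89 in the ESC tables and 1.29 in the iPSC table. The estimated levels rest on these folds, and the part of such a draw in the levels and in the difference was not tested.

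Changes in markers of other cell types accompanied the members' rises in all comparisons. In ESC-OB against ESC, 11 of 12 smooth muscle and pericyte markers rose, as did 11 of 12 fibroblast and tendon, 10 of 10 cardiac, 8 of 10 epithelial, 7 of 9 cartilage and 6 of 10 endothelial markers. In sorted ESC-OB GFP+ these counts were 11, 11, 9, 9, 6 and 5, and in iPSC-OB 8, 8, 8, 5, 5 and 4, of the same numbers. Against their lists, the endothelial Pecam1 fell in all 3 comparisons, Vwf and Eng in both ESC ones and Cldn5 in iPSC-OB. Notch3, a pericyte receptor, fell in sorted ESC-OB GFP+ and iPSC-OB, and the fibroblast marker Thy1 in sorted ESC-OB GFP+. The cartilage genes Col2a1 (both ESC comparisons), Matn1 (ESC-OB) and Acan (sorted ESC-OB GFP+ and iPSC-OB) fell too. The epithelial cadherin Cdh1 fell in each comparison, and Epcam, Esrp1 and Grhl2 in iPSC-OB. The part of these cells in the members' rises was not tested.

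The enzymes and helpers that assemble the fibre changed alongside it. All 7 crosslinking and assembly genes rose in both ESC comparisons (medians 6.24 and 5.88), and 6 of 7 in iPSC-OB (median 1.53), Loxl4 being the one that did not pass. Lox, the lysyl oxidase that crosslinks elastin and collagen, rose by 11.86 ± 0.57 (log2, SE, adjusted p = 2.37e-93) in ESC-OB, 12.00 ± 0.57 (adjusted p = 8.44e-96) in sorted ESC-OB GFP+ and 3.28 ± 0.34 (adjusted p = 3.57e-21) in iPSC-OB in the authors' deposited table. Loxl2, a related oxidase, rose by 8.59 ± 0.33 (adjusted p = 5.32e-147), 5.88 ± 0.33 (adjusted p = 8.56e-70) and 2.50 ± 0.37 (adjusted p = 1.83e-10) in the authors' deposited table. Like Fbn1, Loxl2 was lower in the sorted cells than in the whole cultures, by a log2 difference of -2.70 ± 0.47 (adjusted p = 1.58e-07). Fkbp10, a collagen and elastin chaperone, rose by 6.55 ± 0.23 (adjusted p = 2.15e-171), 7.00 ± 0.23 (adjusted p = 5.52e-197) and 2.69 ± 0.46 (adjusted p = 3.51e-08) in the authors' deposited table.

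Of the other fibulins, emilins and microfibril-associated genes, 10 of 12 rose and 1 fell in ESC-OB (median 4.03), 10 rose and 2 fell in sorted ESC-OB GFP+ (median 3.77), and 9 of 11 rose and 0 fell in iPSC-OB (median 2.23). Bgn, the proteoglycan biglycan, rose by 9.78 ± 0.44 (log2, SE, adjusted p = 5.15e-105), 9.04 ± 0.44 (adjusted p = 3.67e-90) and 1.82 ± 0.36 (adjusted p = 1.84e-06) in ESC-OB, sorted ESC-OB GFP+ and iPSC-OB in the authors' deposited table. Efemp1, or fibulin-3, rose by 6.18 ± 0.24 (adjusted p = 1.42e-139), 6.39 ± 0.24 (adjusted p = 1.31e-150) and 2.53 ± 0.55 (adjusted p = 1.71e-05) in the authors' deposited table. Dcn, the proteoglycan decorin, rose in each and had estimated levels of 0.0643 CPM in ESC, 317 in ESC-OB, 694 in sorted ESC-OB GFP+, 1.49 in iPSC and 92.8 in iPSC-OB. The falls were of Mmrn2, an endothelial relative of the emilins, at -3.26 ± 0.31 (adjusted p = 2.40e-25) in ESC-OB and -4.58 ± 0.31 (adjusted p = 9.15e-50) in sorted ESC-OB GFP+ in the authors' deposited table, and of Vcan, the proteoglycan versican, at -2.25 ± 0.26 (adjusted p = 5.57e-18) in sorted ESC-OB GFP+ in the authors' deposited table.

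The latent TGF-beta binding proteins tether TGF-beta to fibrillin microfibrils, and 6 of the 7 genes of binding proteins and ligands rose in ESC-OB (median 6.06), 7 in sorted ESC-OB GFP+ (median 6.64) and 5 in iPSC-OB, where 1 fell (median 1.78). Ltbp3 rose by 7.05 ± 0.41 (log2, SE, adjusted p = 7.26e-64), 7.66 ± 0.41 (adjusted p = 1.53e-75) and 1.78 ± 0.38 (adjusted p = 1.14e-05) in the authors' deposited table. The ligand genes Tgfb2 and Tgfb3 rose in each comparison, from 0.210 and 0.0812 CPM in ESC to 71.0 and 58.4 in ESC-OB. Ltbp4, which also helps elastin assembly with Fbln5, had 0.19 ± 0.27 (adjusted p = 0.534) in ESC-OB, 0.72 ± 0.26 (adjusted p = 0.00973) in sorted ESC-OB GFP+ and -1.64 ± 0.43 (adjusted p = 5.00e-04) in iPSC-OB in the authors' deposited table.

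ADAMTS and ADAMTS-like proteins bind fibrillin and aid microfibril assembly, and 7 of 7 such genes rose in both ESC comparisons (medians 6.19 and 5.96) and 4 of 7 in iPSC-OB (median 1.63). Thsd4, or ADAMTSL6, rose by 7.34 ± 0.44 (log2, SE, adjusted p = 2.17e-61), 5.96 ± 0.44 (adjusted p = 4.26e-41) and 2.77 ± 0.47 (adjusted p = 2.09e-08) in the authors' deposited table. The largest fitted values in ESC-OB were of Adamtsl3 and Adamtsl2, whose estimated levels were 0.0458 and 0.0402 CPM in ESC and 28.0 and 8.60 in ESC-OB. Adamts10, a fibrillin-binding protease, was higher in the sorted cells than in the whole cultures by a log2 difference of 1.72 ± 0.64 (adjusted p = 0.0338).

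Among the 11 integrin and elastin receptor genes, 9 rose and 1 fell in both ESC comparisons (medians 2.20 and 2.52), and 9 rose and 0 fell in iPSC-OB (median 1.75). Itga8, an integrin chain, rose by 8.71 ± 0.34 (log2, SE, adjusted p = 9.73e-140), 8.42 ± 0.34 (adjusted p = 5.96e-131) and 2.35 ± 0.40 (adjusted p = 2.50e-08) in the authors' deposited table. The gene that fell was Glb1, whose splice form is the elastin-binding protein, at -0.44 ± 0.15 (adjusted p = 0.00497) in ESC-OB and -0.46 ± 0.14 (adjusted p = 0.00234) in sorted ESC-OB GFP+ in the authors' deposited table. Itgb6 and Itgb8, chains of the integrins that activate latent TGF-beta, rose in both ESC comparisons from estimated ESC levels of 0.0471 and 0.0392 CPM to 50.6 and 19.1 in ESC-OB. Of the elastin-degrading proteases, 6 of 7 rose in both ESC comparisons (medians 4.84 and 4.97), and 5 rose and 1 fell in iPSC-OB (median 1.98). Mmp2, gelatinase A, rose by 8.27 ± 0.30 (adjusted p = 2.19e-168), 8.48 ± 0.30 (adjusted p = 2.27e-177) and 3.06 ± 0.36 (adjusted p = 1.27e-16) in the authors' deposited table, and Ctsk, cathepsin K, went from 0.112 CPM in ESC to 53.8 in ESC-OB. Mmp9, gelatinase B, was the protease that fell in iPSC-OB, at -2.26 ± 0.54 (adjusted p = 1.32e-04) in the authors' deposited table.

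Genes with an estimated ESC level under 3 normalised counts a library included Dcn, Tgfb2, Tgfb3, Adamtsl2, Adamtsl3, Itgb6, Itgb8 and Ctsk. Their fitted folds rest on few ESC reads and may be drawn towards 0, so they are no bounds. With such levels raised to 3, the ESC-OB medians became 5.00 for the ADAMTS genes, 3.49 for the proteases and 3.98 for the other fibulins and emilins, and in sorted ESC-OB GFP+ 3.62 for the proteases. The medians of the members and of the crosslinking genes stayed as given, and that of all genes in ESC-OB became 0.01. No member had a level under 3 normalised counts in any group. Lox, at 3.17 normalised counts a library in ESC, was just above this limit, so its ESC folds also rest on few reads.

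The difference between iPSC-OB and ESC-OB changes was counted in the same lists. It was lower in iPSC-OB for 6 of 7 crosslinking genes, 7 of 7 latent TGF-beta genes, 7 of 7 ADAMTS genes, 6 of 12 other fibulins and emilins, 4 of 11 receptors and 4 of 8 proteases. It was higher for Mmrn2 and Vcan among the other fibulins and emilins and for Glb1 among the receptors. The median differences were -4.93 for the crosslinking genes, -4.21 for the latent TGF-beta genes, -4.18 for the ADAMTS genes, -2.17 for the other fibulins and emilins, -0.45 for the receptors and -2.91 for the proteases.

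**Figure D4:**
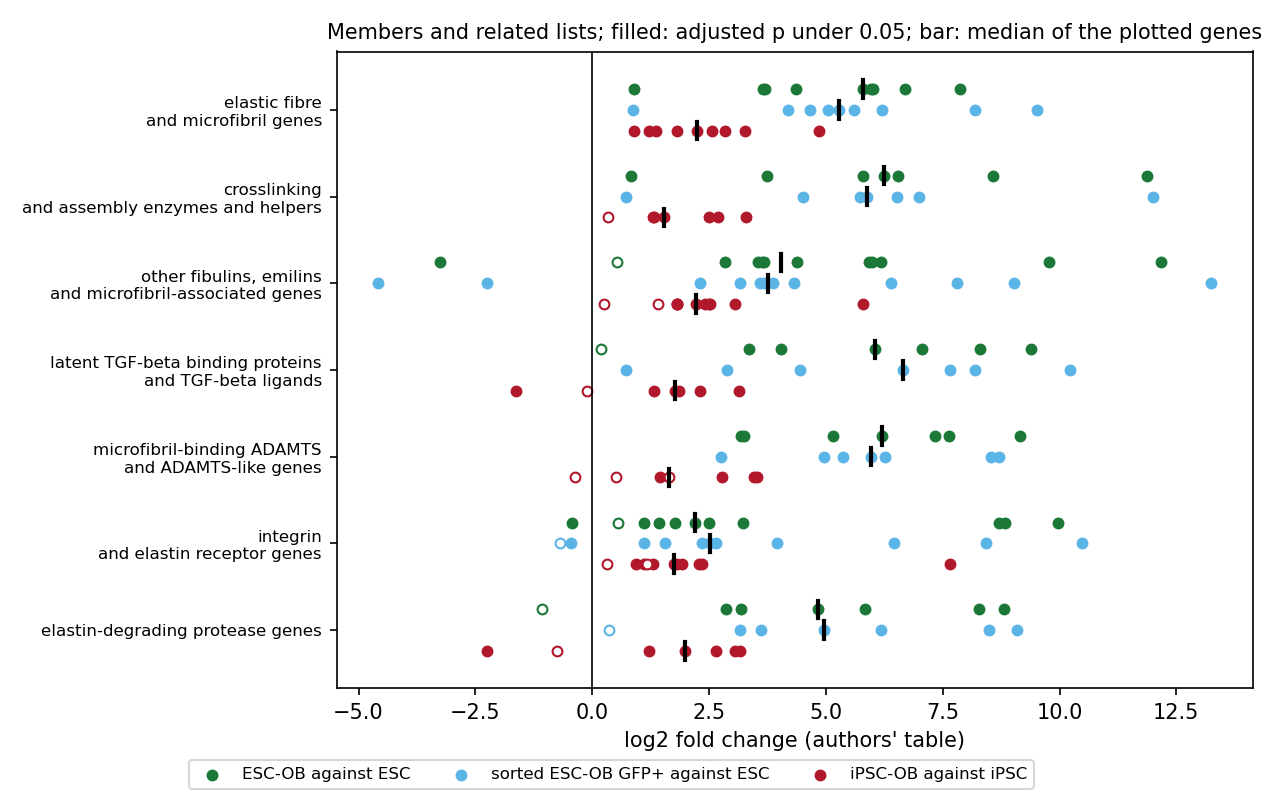
Log2 fold changes from the authors' deposited table for the members and 6 lists of related genes, with filled points for an adjusted p under 0.05 and a bar at the median of the genes that have an adjusted p. The 9 members lie right of 0 in each comparison, with medians of 5.78, 5.29 and 2.23.

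Likeness between genes was taken as the Euclidean distance over the 3 log2 changes of the authors' deposited table, among 9817 genes with a base mean of at least 100 in both fits. The 5 genes nearest to Eln were Krt7 (distance 0.600), a keratin of simple epithelia, Selenbp1 (0.842), a selenium-binding protein, Frzb (0.864), a secreted Wnt antagonist, Sox17 (0.864), an endoderm and endothelial transcription factor, and Ly6c1 (0.931), a cell surface antigen. The fellow member nearest to Eln was Mfap4 at 2.37. The 5 genes were picked from all 9817 and Mfap4 from the 9 members only. A larger pool gives smaller nearest distances by construction, so these distances do not rank Eln as less like its fellow members. The closest pair of members was Fbn2 and Fbln5 at 1.23, followed by Emilin1 and Mfap5 at 1.27 and Fbn1 and Fbn2 at 1.28. Fbln1 stood apart from the others, its nearest member being Fbln2 at 4.33. Both ESC changes share their controls, so the 3 values behind a distance are not independent.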

How the data were processed

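Messenger RNA sequencing of 22 samples in 8 groups is described by the labels. The submitters' processing notes name STAR 2.4.2a, mm9, DESeq2 and R 3.2.2, with no design formula or filters. Each of the 3 tables holds the authors' comparison of a pair of groups. Per the file headers, the columns are the base mean (a signal, the authors' average normalised count over the libraries of a fit), the deposited log2 fold change and its error, also log2, a deposited test score (the statistic), and the deposited p-value, raw and adjusted. The tables held 19781, 19781 and 19057 genes. Columns of values for single samples numbered 0, so no model was refitted, and p-values of the 3 comparisons are the authors' DESeq2 ones with Benjamini-Hochberg adjustment. An adjusted p-value was missing for 1573, 1193 and 1478 genes, which were not counted as changed. Both ESC tables have identical base means and share a fit.

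Differences between changes were divided by the root of the summed squared standard errors, given a two-sided normal p and adjusted by the Benjamini-Hochberg method over all genes with a p in both tables. The script was tested on simulated data. Group levels were computed from base means, fold changes and the labelled numbers of libraries, scaled to 1e+06 counts, leaving Rn45s, a ribosomal RNA gene, out of the total. Levels per kilobase use GENCODE M21 exons on GRCm38, another build than the authors' mm9. Depths were read from base means under 0.45 (ESC fit) or 0.9 (iPSC fit) as sums of whole reads, which explained 99.9% and 99.8% of these values within 5e-07. Shifted values were explained for 0.255% and 0%. For 2 of the ESC-fit libraries, the group was not read. Python 3.11.15, numpy 2.4.6, pandas 2.3.3, scipy 1.17.1 and matplotlib 3.10.9 were used.

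The members, lists and tests were chosen with earlier results of these data known, so no list is independent evidence. Named are all members, and of each list up to 3 genes with the largest rises and up to 2 with the largest falls at a base mean of at least 10. Genes of the lists that did not pass, Loxl4, Ltbp4 in ESC-OB, Sp7 and the genes set beside Fbn1 and Col1a1 in differences were singled out after their values were seen. The same holds for Bglap. Hmcn2 and Snorc had no row in the tables. The calvarial osteoblast, mouse bone GFP+(hi) and GFP+(lo) groups were not analysed here. Libraries were made with NEBNext Ultra II or SMART-Seq v4, per the labels' protocols, without naming the samples for each.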

Additional observations from a re-analysis of the deposited data

Results flagged for a closer look

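For 7 members the change in 1 cell source differed from that in the other by the test of the difference itself, iPSC-OB minus ESC-OB, on the log2 scale with its SE. The differences were -3.01 ± 0.77 for Eln, -4.64 ± 0.56 for Fbn1, -3.23 ± 0.76 for Fbn2, -2.77 ± 0.31 for Fbln2, -3.72 ± 0.84 for Fbln5, -2.56 ± 0.51 for Emilin1 and -3.41 ± 0.63 for Mfap4. All 7 had the smaller change in iPSC-OB. No group has a value per sample in the tables, so no sample could be checked for standing apart from its group.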

How the results depend on the processing

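The counts of 9 members that rose in each comparison, and of 7 with a smaller change in iPSC-OB, kept their direction under every alternative run (a threshold of 0.01, no filter, base means of at least 10 or 100, re-centring and a minimum size of 1). With the minimum size the counts of rises were 8 in each comparison, and the share of all genes under that rule was not counted. The count of members differing between sorted and unsorted cells, 1 as reported, was 0 at an adjusted p under 0.01, 2 at a base mean of at least 100, where Eln passed (adjusted p = 0.0495), and 6 with the standard error for shared ESC samples. Fewer genes tested or a smaller error bring this about by construction. Among these alternatives the share of all genes was counted only for the shared ESC error, at 17.7% higher and 17.7% lower. Of the single-gene values under alternatives, 269 stayed on the same side of the threshold, 6 newly passed and 4 no longer passed, and 0 reversed. The median level of the members was 40.0 CPM in iPSC-OB, and it was 45.6 with 3 iPSC libraries and 49.4 without the 100 highest genes in the total. In ESC-OB it was 147, against 135 with Rn45s kept and 179 without the 100 highest genes, and in sorted ESC-OB GFP+ 173 against 205 without them. The tables hold no value per sample, so fits without each replicate could not be run. No paired analysis was possible because the tables give comparison results only. The lowest member level, of Eln in ESC, was 7.76 normalised counts a library, so its fold is limited by few reads.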
